A study of Mus musculus with 21 samples.

Results

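Electrically silent potassium channel subunits are the 10 genes of the Kv5, Kv6, Kv8 and Kv9 families: Kcnf1 (Kv5), Kcng1 to Kcng4 (Kv6), Kcnv1 and Kcnv2 (Kv8), and Kcns1 to Kcns3 (Kv9). The 10 genes were chosen by symbol, as the family of Kcnv1, and Kcnv1 itself was selected from its measured response to AdipoRon, so its values are given as a description. Of 22040 genes in the 4 deposited tables together, 10 were members, and 9 were listed in the table of DMSO cultures, which does not list Kcnv2. RNA was sequenced from 21 cultures of primary cortical neurons of newborn mice: in Tau neurons 5 with DMSO and 5 with AdipoRon, in WT neurons 5 with DMSO and 6 with AdipoRon. Tau neurons carry human tau with the P301S mutation, driven by the prion promoter. According to the labels and methods, pre-formed fibrils (3 μg/mL) had been added to the Tau neurons on day 7. These sources mention no fibrils for WT neurons, while a sentence in the paper's results can be read as seeding of both genotypes. If WT neurons had none, genotype and fibrils cannot be told apart. AdipoRon, an agonist of adiponectin receptors, was given at 10 μM for 24 h against its vehicle DMSO, and all cultures had been exposed to AraC against dividing glia. According to the reporting summary, samples of the same animal went into each treatment. The DMSO and AdipoRon means therefore share animals, which could not be paired here. In the sample titles, number 4 of the WT neurons occurs with AdipoRon only. If these numbers stand for animals, that culture had no DMSO partner.

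Silent subunits have the fold of a voltage-gated potassium channel subunit but form no working channel on their own. They assemble with Kv2 subunits into mixed channels, in which they shift the voltage range and the speed of gating. Kv2 channels carry much of the slow, delayed outward current that repolarizes cortical neurons during repeated firing.

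Each table gives 1 mean level per gene over the cultures of 2 groups, as log2 CPM (counts relative to library size, on a log2 scale). The means therefore covered the 10 DMSO cultures of both genotypes, the 11 AdipoRon cultures of both genotypes, the 10 Tau cultures of both treatments and the 11 WT cultures of both treatments. No values of single cultures were used, so no mean has a replicate error, the depth per culture is unknown, and no difference below was tested. Whether the 4 means fit together was checked by adding up the cultures by treatment and by genotype, which must give one sum. Over the 19399 genes in all 4 tables, these sums differed by a median of -0.0344% (quartiles -0.241% and 0.129%), and for all 19399 genes by no more than 10%. The sums of Kcnv1 differed by -1.06%, the largest gap among the members. Some exchanges of the group names would change these sums little or only in sign. The check therefore cannot show which groups a mean covers, and the groups are taken as the authors named them.

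Markers of neurons (Snap25, Syt1, Rbfox3, Tubb3 and Map2) were all listed, at log2 CPM of 7.72 to 10.11 under DMSO. Astrocyte markers (Gfap, Aqp4, Aldh1l1 and Slc1a3) were listed at 8.11 to 10.70 log2 CPM under DMSO. Under AdipoRon all 5 neuron markers had a lower mean (median log2 difference -0.20), as had the 3 markers of inhibitory neurons (median -0.22). Of the astrocyte markers, Gfap and Aldh1l1 were higher and Aqp4 and Slc1a3 lower (median 0.06). Among the markers of excitatory neurons, Neurod2 had 4.87 log2 CPM under DMSO and 6.37 under AdipoRon, Slc17a7 had 9.06 and 9.17, and Slc17a6 had 3.02 and 2.49. Microglia markers were lower for 3 of 4 genes (median -0.17) and oligodendrocyte lineage markers for 2 of 4 (median -0.16), and both vascular markers listed were lower (median -0.09). The part of other cells in the levels of silent subunits was not tested, and less RNA per cell cannot be told apart from fewer cells of a type.

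Kcnv1 encodes Kv8.1, which makes Kv2 channels open and close at other voltages and lowers their current. Its mean level was 6.32 log2 CPM (80.2 CPM) over the DMSO cultures and 2.82 log2 CPM (7.05 CPM) over the AdipoRon cultures. The Tau cultures of both treatments had 5.59 log2 CPM and the WT cultures 5.21 log2 CPM. The mean under AdipoRon was thus 8.80% of that under DMSO, a log2 difference of -3.51 or 11.4-fold. In rank, Kcnv1 was number 5 from the lowest difference of 19693 genes.

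Kcng3 (Kv6.3) and Kcnf1 (Kv5.1) were the other members with a mean at least 2-fold lower under AdipoRon. Kcng3 had 3.26 log2 CPM under DMSO and 1.36 under AdipoRon, a log2 difference of -1.89 that left 26.9% of the DMSO level. Kcnf1 had 6.59 log2 CPM under DMSO and 5.24 under AdipoRon, a log2 difference of -1.34 that left 39.5%. With Kcnv1, 3 of 9 members were at least 2-fold lower, against 1.75% of all 19693 genes. This share describes a family built around a gene with a known response, and nothing is read from it. The level of no member was 2-fold higher, against 0.675% of all genes.

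**Figure D1:**
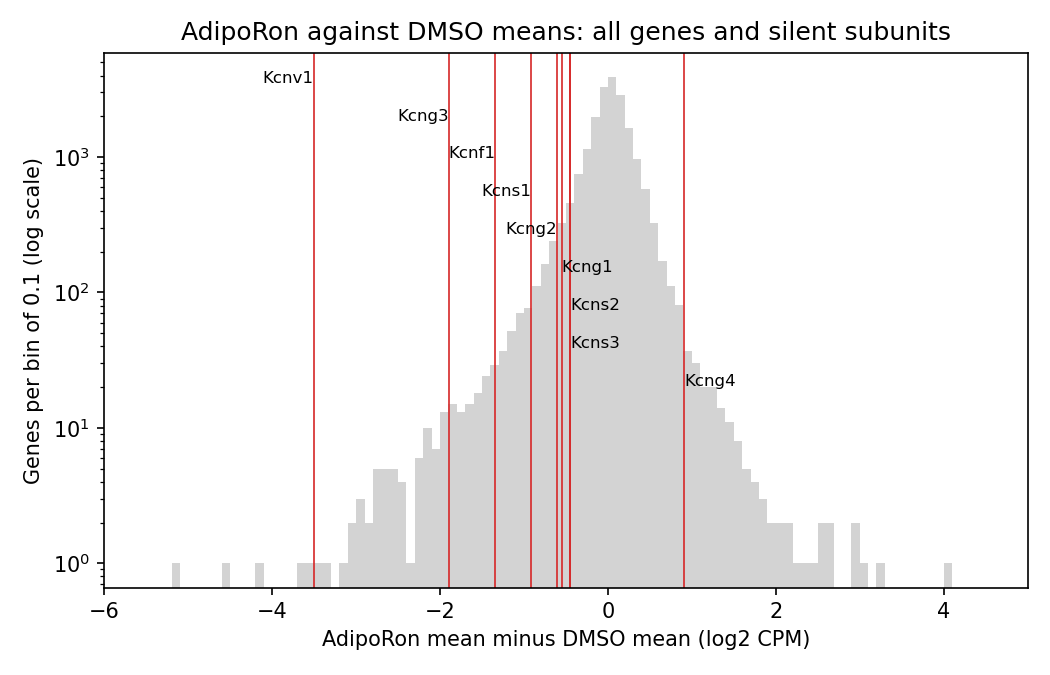
Distribution of the AdipoRon mean minus the DMSO mean (log2 CPM, x axis) over 19693 genes in bins of 0.1 (number of genes on a log scale, y axis), with 9 silent subunits as red lines. Kcnv1 lies at -3.51, in the sparse lower tail, while Kcng4 is the only member above 0.

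The remaining members differed less between the treatments. Kcns1 (Kv9.1), a subunit known from sensory neurons, had 3.44 log2 CPM under DMSO and 2.53 under AdipoRon, a log2 difference of -0.91. For Kcng2 (Kv6.2) and Kcng1 (Kv6.1) the log2 differences were -0.60 and -0.55, and Kcns2 (Kv9.2) and Kcns3 (Kv9.3) both had -0.45. Kcng4 (Kv6.4) went the other way, with 3.59 log2 CPM under DMSO and 4.49 under AdipoRon, a log2 difference of 0.91. In all, 8 of 9 members had a lower and 1 a higher mean under AdipoRon, with a median log2 difference of -0.60. Over all 19693 genes that median was 0.02, with 8870 genes lower and 10823 higher under AdipoRon. The middle 90% of genes lay between -0.58 and 0.47. Each difference between treatments sets values of 2 tables side by side, and how libraries were normalized in each table is not given in the sources used here. Kcnv2 (Kv8.2), known from photoreceptors, was scarce wherever it was listed, at 0.235 CPM under AdipoRon, 0.262 CPM in Tau and 0.178 CPM in WT cultures.

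**Figure D2:**
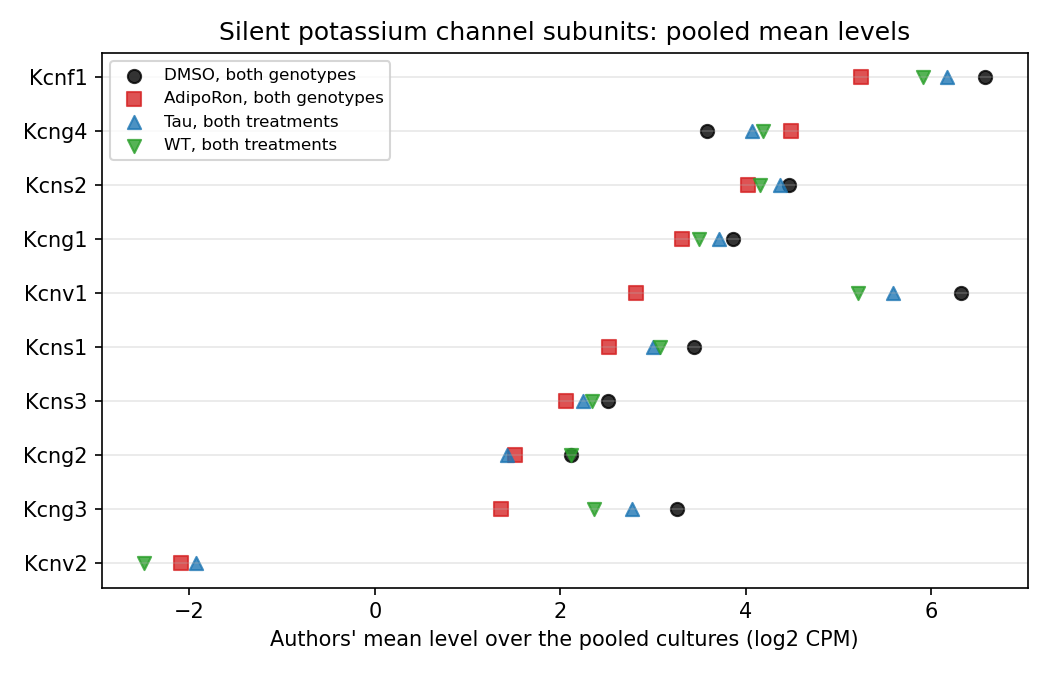
Mean level of each silent subunit (log2 CPM, x axis) over the pooled cultures under DMSO (black circles), under AdipoRon (red squares), of Tau (blue upward triangles) and of WT neurons (green downward triangles). The gap between black and red is widest for Kcnv1 (6.32 and 2.82), the order is turned round for Kcng4 (3.59 and 4.49), and Kcnv2 has no DMSO value.

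To order the members, levels were divided by the length of the canonical transcript. On that scale Kcnf1 (20.1 CPM per kb) and Kcnv1 (16.1 CPM per kb) stood first under DMSO, followed by Kcns1 at 3.73, Kcng1 at 3.53 and Kcns2 at 3.51 CPM per kb. Kcng3 (2.43), Kcng4 (2.38), Kcns3 (1.88) and Kcng2 (0.624 CPM per kb) came last. Without a spread over cultures, it is unknown which neighbours in this order differ. Under AdipoRon, Kcnf1 remained first at 7.91 CPM per kb, Kcng4 was the next at 4.46, and Kcnv1 was number 6 of 10 at 1.42 CPM per kb.

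Kcnb2 (Kv2.2), which encodes a Kv2 subunit, had a mean of 4.47 log2 CPM under DMSO and 3.85 under AdipoRon, a log2 difference of -0.62. Per length, its mean under DMSO was 4.79 CPM per kb. Of 15 other pore-forming subunits of the Kv1, Kv3 and Kv4 families, 13 were listed for both treatments, 7 lower and 6 higher under AdipoRon, with a median of -0.04. Kcna4 (Kv1.4), which carries a fast-inactivating current, was the 1 of these past a 2-fold difference, at -1.74.

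The 4 group means could not be solved from the 4 pooled means, but a mean cannot be negative, which limits each of them if every culture counts the same. For Kcnv1 these limits were narrow. Its mean lay between 80.7 and 96.2 CPM in Tau neurons with DMSO and between 0 and 15.5 CPM in Tau neurons with AdipoRon. In WT neurons it lay between 64.1 and 79.6 CPM with DMSO and between 0 and 12.9 CPM with AdipoRon. Within these limits, the Kcnv1 mean was lower with AdipoRon in each genotype. The limits are narrow because the AdipoRon mean is low, and Kcnv1 was selected from its response to AdipoRon. Their separation is thus a description and no independent support for that response. These limits rest on the DMSO, AdipoRon and Tau means, and with the WT mean in place of the Tau mean they moved by little. By the lower of both values, the Kcnv1 mean was at least 5.08-fold lower in Tau and at least 4.96-fold lower in WT neurons with AdipoRon. Under DMSO the lower limit in Tau neurons was 80.7 CPM against an upper limit of 79.6 CPM in WT neurons, but 78.8 against 81.5 CPM through the WT mean, so no order of the genotypes is read from it. Under AdipoRon the limits of the genotypes overlap.

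Kcng3 was the other member whose limits separated the treatments. In Tau neurons its mean lay between 7.97 and 13.6 CPM with DMSO and between 0 and 5.66 CPM with AdipoRon. In WT neurons the limits were 5.50 to 11.2 CPM with DMSO and 0 to 4.72 CPM with AdipoRon. By the lower of both values, this is a mean at least 1.38-fold lower in Tau and at least 1.17-fold lower in WT neurons. The limits of the other 7 members listed in all tables overlapped between the treatments in both genotypes, so their means did not show in which genotype a difference lay. These limits follow from sums, and cover neither the spread between cultures nor unequal weights of deep and shallow libraries. They were computed for the members only. The share of all genes with separate limits is therefore unknown, and nothing is read from the number of members with them.

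**Figure D3:**
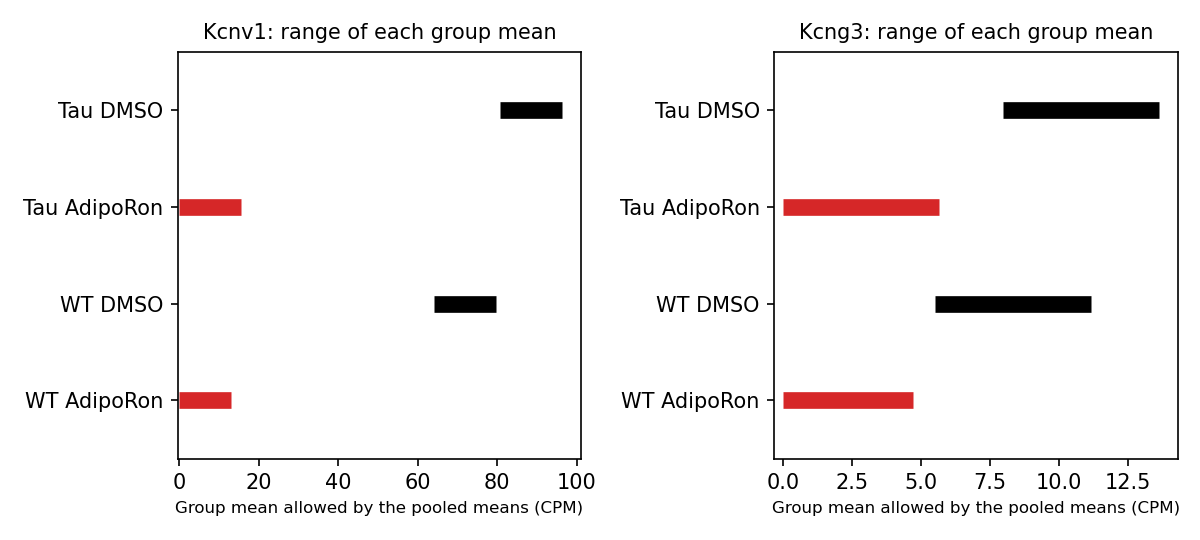
Range of each group mean (CPM, x axis) that the 4 pooled means allow for Kcnv1 (left) and Kcng3 (right), with DMSO groups in black and AdipoRon groups in red. Black and red bars do not overlap within either genotype, with Kcnv1 at 80.7 to 96.2 CPM in Tau neurons with DMSO and at most 15.5 CPM with AdipoRon.

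Between Tau and WT cultures, pooled over both treatments, 6 of 10 members had a higher and 4 a lower mean in Tau cultures. Of all 19890 genes, 10086 had a higher and 9804 a lower mean there. No member reached a 2-fold difference in either direction, against 0.508% of all 19890 genes at least 2-fold lower and 0.126% at least 2-fold higher in Tau cultures. The log2 differences of Tau minus WT were 0.38 for Kcnv1, 0.41 for Kcng3, 0.26 for Kcnf1, 0.22 for Kcns2 and 0.21 for Kcng1. Kcng4, Kcns3 and Kcns1 had -0.12, -0.09 and -0.07. Over all genes the median was 0.00208, with 90% of genes between -0.40 and 0.47. Among all 19890 genes, Kcng3 lay at percentile 93.4, Kcnv1 at 92.7, Kcnf1 at 87.8, Kcns2 at 85.4 and Kcng1 at 85.1. Kcnv2 lay at 97.0 and Kcng2 at 1.56, with Kcng4, Kcns1 and Kcns3 between 19.3 and 28.8. A minimum of 1 log2 CPM in both tables, chosen after seeing the data, left 14154 genes. Among these, Kcng3 lay at percentile 99.2, Kcnv1 at 99.0, Kcnf1 at 97.5, Kcns2 at 96.2, Kcng1 at 96.1 and Kcng2 at 1.18. Kcng4, Kcns1 and Kcns3 then lay between 19.98 and 31.6. The pools differ in treatment as well, since 5 of 10 Tau cultures but 6 of 11 WT cultures had received AdipoRon. With equal genotypes, this mix alone would give Kcnv1 a log2 difference of 0.11 and Kcng3 one of 0.08, and 0.26 and 0.33 were left after subtraction. The 2 largest differences were those of Kcng2, at 1.42 log2 CPM in Tau and 2.12 in WT cultures (-0.70), and of the scarce Kcnv2 (0.56), both outside the range of 90% of all genes. Markers of other cells differed in the same comparison, with microglia markers lower in Tau cultures for 4 of 4 genes (median -0.98, 2 of them at least 2-fold) and oligodendrocyte lineage markers for 4 of 4 (median -0.60). Neuron markers were higher for 5 of 5 (median 0.11) and excitatory neuron markers for 3 of 3 (median 0.29). Astrocyte and inhibitory neuron markers had medians of -0.05 and -0.01, and the 2 vascular markers listed had a median of 0.15. Their part in the differences of the members was not tested.

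Upstream sequences of Kcng3 and Kcnf1 are shown because the mean of both was at least 2-fold lower under AdipoRon. Of the 10 members, 5 matched the RefSeq promoter table of GRCm38.p6, the assembly also named mm10, and Kcnv1 did not. The 250 bases before the transcript start were searched on both strands for TGACG, the core of the cyclic AMP response element, for the full palindromic element, which contains that core, and for the AP-1 motif TGACTCA. Matches are in capitals in both sequences, which run 5′ to 3′ on the minus strand.
Kcng3, chr17:83631896-83632145: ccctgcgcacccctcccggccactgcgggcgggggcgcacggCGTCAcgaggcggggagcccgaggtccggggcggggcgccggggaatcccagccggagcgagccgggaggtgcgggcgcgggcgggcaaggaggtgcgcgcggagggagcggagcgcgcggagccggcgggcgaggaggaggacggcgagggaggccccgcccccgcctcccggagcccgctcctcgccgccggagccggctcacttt
Kcnf1, chr12:17176889-17177138: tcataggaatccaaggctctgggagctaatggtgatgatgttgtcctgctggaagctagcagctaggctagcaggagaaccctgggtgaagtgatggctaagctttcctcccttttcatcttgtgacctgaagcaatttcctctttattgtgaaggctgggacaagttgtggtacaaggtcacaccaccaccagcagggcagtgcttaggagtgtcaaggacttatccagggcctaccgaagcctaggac
The Kcng3 window held 1 core motif, on the opposite strand and starting 208 bases before the start, and its GC content was 82.4%. The Kcnf1 window, with a GC content of 51.2%, held none of these motifs. Windows of Kcng4, Kcns1 and Kcns3, also searched and not shown, held none of them either. Among all 32851 windows of this length, 17.8% held the core, 1.55% the full element and 4.46% the AP-1 motif. A match of 1 core motif is a description of the letters and not of a binding site.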

How the data were processed

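Polyadenylated RNA of 21 cultures was sequenced by the authors, who, according to their methods, trimmed the reads, aligned them to mm10 with STAR, quantified them with RSEM and fitted a generalized linear model in edgeR. The results of their paper name GRCm39 instead, and their tables are named after Rsubread. The authors deposited mean expression as log2 CPM, 1 value per gene and table over both groups of a comparison. How libraries were normalized and genes filtered is not given in the sources used here. The deposited tables also hold the authors' own fold changes, likelihood ratios, p-values, false discovery rates and calls, which were not used, so neither tests nor differences within a table are given.

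Groups were taken from the sample titles. Differences between tables were computed with pandas 2.3.3 (Python 3.11.15) over all genes listed in both, and a log2 difference of 1 (2-fold) was counted. Limits of group means came from the sums of cultures. Simulated group means, pooled by the same sums, lay inside their limits in 200 of 200 sets. This checks the arithmetic only, and not whether the sums hold for the deposited means. Transcript lengths were those of GENCODE canonical transcripts of GRCm39, and the sequences were those of RefSeq for GRCm38.p6. All 10 members and Kcnb2 were named, and other Kv subunits were counted. Not every gene of the lists is reported here. Members and lists were chosen with earlier results of these data known. The planned test on counts, replicate exclusion and replicate block need values per culture. The minimum level of 1 log2 CPM, the centring, the mix of treatments, the limits of group means and the motifs were chosen after seeing the data. Kcna4 was named after its value was seen.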

Additional observations from a re-analysis of the deposited data

How the results depend on the processing

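No paired analysis was possible because the deposited values are means over 2 groups, so the numbers in the sample titles, and the animals shared by both treatments, could not be used. For the same reason replicates were not left out, and a second normalization, a test on counts and a filter on low counts were not run. With genes of at least 1 log2 CPM in both tables, a minimum chosen after seeing the data, the number of genes past a 2-fold difference was 150 lower and 59 higher under AdipoRon (344 and 133 without it), and 60 lower and 4 higher in Tau cultures (101 and 25 without it). Restriction to the 19399 genes in all 4 tables, or subtraction of the median difference of all genes, left these 4 counts within 1.5 times their size. The differences of the members do not depend on which other genes are listed. Subtraction of the median moved that of Kcnv1 from -3.51 to -3.53. Taken as the median over the 4 tables, the level was 5.40 log2 CPM for Kcnv1, 6.05 for Kcnf1, 2.57 for Kcng3 and 4.13 for Kcng4, each over 0.5 from the DMSO mean. Without values per culture, the precision of every mean is unknown.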
